A study of Mus musculus with 43 samples.

Results

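Loss of the Rnase9-12 locus was compared with wild type (WT) in luminal fluid of the corpus, the middle segment of the mouse epididymis. The comparison took the 3 Rnase9-12 knockout (KO) and the 3 WT libraries labelled as corpus fluid, 6 of the 43 libraries of the study. All mice were of the FVB strain and 8 to 12 weeks old, and the KO mice were homozygous for a CRISPR/Cas9 deletion of the cluster that holds Rnase9, Rnase10, Rnase11 and Rnase12, so an effect of 1 of these genes cannot be told apart from that of the others. Each library was made from the pooled RNA of 3 mice, treated with polynucleotide kinase and built by OTTR-seq, a method in which a reverse transcriptase adds both adapters while it copies the RNA. The fluid had been cleared of sperm and cell debris by settling and spins and of extracellular vesicles by ultracentrifugation. Fewer cells shedding an RNA and less RNA shed per cell cannot be told apart in such samples.

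Sperm gain much of their small RNA cargo while they pass through the epididymis. Genes Rnase9 to Rnase12 encode secreted proteins of the ribonuclease A superfamily, whose member angiogenin cuts tRNAs in the anticodon loop and so yields tRNA fragments (tRFs). MicroRNAs (miRNAs) are cut from hairpin precursors and guide Argonaute proteins through their seed, whereas PIWI-interacting RNAs (piRNAs) are made from long precursors, chiefly in male germ cells. Y RNAs bind the Ro60 protein, 7SK RNA holds the elongation factor P-TEFb inactive, 7SL RNA is the scaffold of the signal recognition particle, and U6 RNA is part of the catalytic core of the spliceosome.

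Called miRNAs of the best known families are shown by their mature strand, with the seed (bases 2 to 8) in capitals. Counts were made per hairpin gene, so they do not separate the arms, and the strand printed is the one usually called the guide. Of the 276 miRNA genes tested, 182 matched a RefSeq entry by symbol, and the sequences are those of RefSeq for GRCm38.p6. The first group shares the let-7 seed, the second the miR-30 seed and the third the miR-26 seed. The remaining ones each have a seed of their own.

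mmu-let-7a-5p: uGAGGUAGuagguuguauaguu
mmu-let-7g-5p: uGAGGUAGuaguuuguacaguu
mmu-miR-98-5p: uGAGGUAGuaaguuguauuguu
mmu-miR-30a-5p: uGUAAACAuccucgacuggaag
mmu-miR-30c-5p: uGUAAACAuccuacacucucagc
mmu-miR-26a-5p: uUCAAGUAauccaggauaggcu
mmu-miR-26b-5p: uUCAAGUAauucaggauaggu
mmu-miR-204-5p: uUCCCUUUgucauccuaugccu
mmu-miR-34a-5p: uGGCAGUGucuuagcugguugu
mmu-miR-301a-3p: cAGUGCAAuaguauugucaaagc
mmu-miR-148a-3p: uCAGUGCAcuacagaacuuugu
mmu-miR-21a-5p: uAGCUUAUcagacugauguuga
mmu-miR-142a-3p: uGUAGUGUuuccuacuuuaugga

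Both Y RNAs are given in full from the GENCODE annotation of GRCm38, since they were the most counted of the RNAs that were higher. Capitals mark the runs of at least 8 bases that Rny1 and Rny3 have in common, which lie near the 5′ end, in the middle and near the 3′ end. Rny1 lies at chr6:47788069-47788180 on the minus strand and Rny3 at chr6:47781624-47781725 on the plus strand.

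Rny1: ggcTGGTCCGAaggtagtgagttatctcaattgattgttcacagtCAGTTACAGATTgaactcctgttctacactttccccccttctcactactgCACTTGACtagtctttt
Rny3: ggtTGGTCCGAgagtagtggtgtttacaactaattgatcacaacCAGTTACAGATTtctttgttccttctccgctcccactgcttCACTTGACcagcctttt

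Of 3178 RNAs listed for fluid, 2023 passed the filter on low counts over the 18 fluid libraries. Summed counts were 6752462, 10172577 and 3989262 in WT libraries 1 to 3 and 2474993, 3373869 and 1948718 in KO libraries 1 to 3, so every KO library was shallower than every WT library. Thinned to the smallest library, the data gave 198 higher and 84 lower calls, a setting chosen after seeing the data. The deleted genes are not among the small RNAs counted, so the genotype could not be checked here. P-values measure the spread between pools only. Those behind the calls rest on a spread estimated over all 18 fluid libraries, those of caput and cauda included. With the 6 corpus libraries alone 1347 RNAs were tested, and 164 were called higher and 92 lower. Of these, 138 and 84 were shared with the calls given below.

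In KO corpus fluid, most intergenic piRNA precursor transcripts and U6 RNA copies, both Y RNA genes and a part of the miRNA genes were higher than in WT, and a part of the internal tRNA fragments were lower. Of the Y RNA genes Rny1 and Rny3, only Rny1 kept its call without each library in turn. With edgeR's quasi-likelihood test, 273 RNAs were higher (13.5% of those tested) and 126 were lower (6.23%), at a Benjamini-Hochberg adjusted p under 0.05 and a fold change above 2. The higher ones were 121 intergenic piRNA transcripts, 67 miRNA genes, 43 entries annotated as snRNAs, 12 other small RNAs, 11 tRNA gene loci, 7 genic piRNA transcripts, 6 copies of 5S rRNA, 5 snoRNAs and 1 full-length tRNA. The lower ones were 106 tRFs, among them 79 fragments from inside the tRNA, with 9 rRNA repeats, 5 antisense tRNA entries and 6 RNAs of other classes.

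All of the KO libraries lay above all of the WT libraries for 231 of the 273 higher RNAs and below them for 120 of the 126 lower ones. Over all RNAs tested these shares were 20.4% and 15.7%. The calls were made from these same libraries, so their separation follows largely from the choice and is not separate support. Entries that share their reads inflate such counts, and the 273 and 126 calls stood for 229 and 121 distinct count profiles. Without WT library 1 the calls numbered 166 higher and 37 lower, without WT library 2 they numbered 114 and 128, and without WT library 3 they numbered 168 and 121. Without KO library 1 they numbered 163 and 64, without KO library 2 they numbered 212 and 57, and without KO library 3 they numbered 189 and 80.

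The direction also rests on the scale. On the scale used here (TMM, a trimmed mean over all RNAs) the median log2 fold change of all RNAs tested was 0.10, and 68.4% of calls were higher. With TMM factors taken only from RNAs other than tRFs, tRNAs and rRNA-derived small RNAs (rsRNAs), that median was -0.71, the calls were 144 higher and 467 lower, and 23.6% were higher. With library size alone 77.5% were higher. Among the calls named below, those of Rny3, Gm26168, Rn7sk, Mirlet7a-1, Mir30a, Mir148a, Mir21a and Mir26a-1 were lost with the factors of the other RNAs (adjusted p = 0.0955 to 0.535). So were those of Mir142, Mir150, Mir1a-1, Snord37, tRNA-iMet-CAT-1, tRNA-Tyr-GTA-3-2 and rmsk_5S_556 (adjusted p = 0.0665 to 0.25). Values below are on the first scale unless the other is named.

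**Figure D1:**
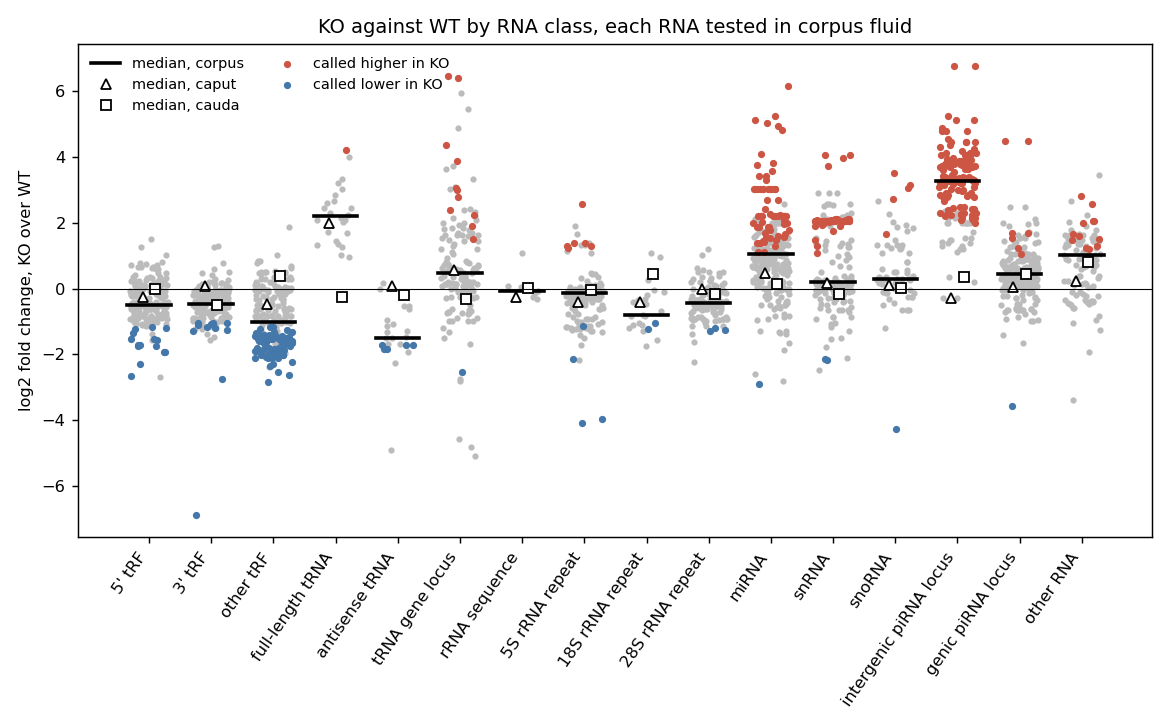
Log2 fold change of KO over WT (vertical axis) for each of the 2023 RNAs tested in corpus fluid, by class, with red points for those called higher and blue for those called lower. Bars are corpus medians, and triangles and squares are the caput and cauda medians of the same RNAs. The intergenic piRNA cloud sits near its median of 3.25, while the other tRFs are centred at -1.02.

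The make-up of the fluid shifted within the tRFs. Taken as a share of each library's counts, 5′ tRFs made up 37.2%, 36.1% and 37.7% in WT and 45.4%, 46.7% and 45.7% in KO. Those of 3′ tRFs were 38.6%, 37.2% and 30.8% in WT and 28.9%, 24.8% and 31.1% in KO. The fragments called other, which are assigned to neither end of the tRNA and named internal fragments below, made up 7.91%, 4.38% and 6.82% in WT and 2.69%, 2.08% and 3.39% in KO. For the 5′ and the other tRFs the groups did not overlap, whereas for the 3′ tRFs they did.

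All tRFs together held 78.9% ± 4.30 (SD, n = 3) of the summed counts of WT libraries and 76.9% ± 3.29 of those of KO libraries (p = 0.6, 2-sided exact permutation test), and all rsRNAs held 13.8% ± 2.19 and 13.1% ± 2.11 (p = 0.7, same exact test). The miRNAs made up 0.631% ± 0.178 in WT and 0.942% ± 0.14 in KO (SD, n = 3), intergenic piRNA loci 0.019% ± 0.00586 in WT and 0.176% ± 0.138 in KO, and the other small RNAs, mostly Y RNAs, 7SK and 7SL, 1.97% ± 0.448 in WT and 3.72% ± 0.879 in KO. In each of these 3 classes every KO library was above every WT library. An exact permutation test of 3 against 3 libraries cannot give a p below 0.1, the value reached by 10 of the 16 classes, and over 16 classes the smallest adjusted p was 0.16.

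**Figure D2:**
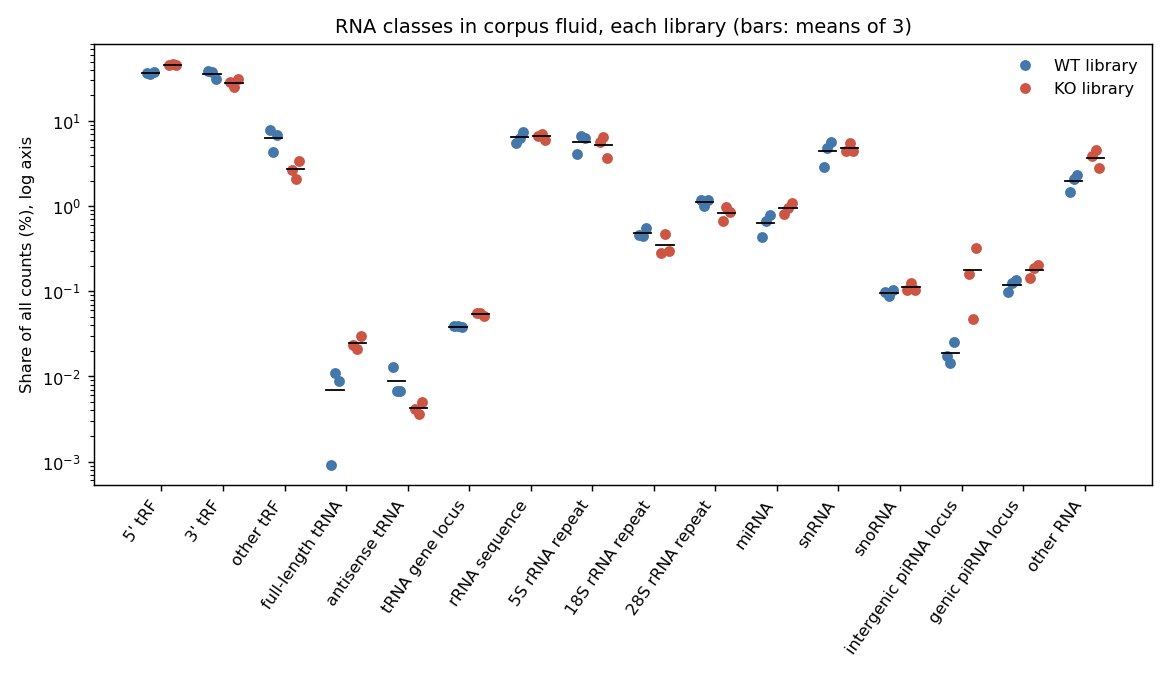
Share of a library's summed counts held by each RNA class (percent, log axis) in the 3 WT (blue) and 3 KO (red) corpus fluid libraries, with bars at the means. The other tRFs fell on separate sides, 4.38% or more in WT and 3.39% or less in KO, and WT library 1 stood far below the rest in full-length tRNA at 0.000903%.

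Intergenic piRNA loci had the highest share of calls of the 16 classes. Of the 150 intergenic precursor transcripts tested, from 76 loci, 121 (80.7%) were called higher, against 13.5% of all RNAs tested. At least 1 of them lay in 63 loci, and no transcript was lower. An RNA could pass the filter on low counts through the KO corpus libraries alone. Without that filter 104 of 202 were called higher and 0 lower (median 2.95). Over the 150, the log2 fold changes ran from -0.29 to 6.75 with a median of 3.25, and 148 were positive, as were 53.5% of all RNAs tested. Summed over all intergenic loci, the level in CPM (counts scaled to a common library size, for this sum without and for single RNAs with TMM factors) was 173, 142 and 256 in WT and 1593, 468 and 3220.1 in KO. KO library 2 was thus the lowest of the KO libraries, though above every WT library, and KO library 3 the highest. That order held for most single transcripts, since KO library 2 was the lowest KO library for 120 of 150 and KO library 3 the highest for 118.

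Transcript 15-qD3-14639.3, named after its band on chromosome 15, had 0.448, 0.659 and 1.01 CPM in WT and 16.4, 3.78 and 26.5 CPM in KO (log2 fold change 4.46 ± 0.669 (SE), adjusted p = 0.00138), with no overlap of the groups. Another one, 17-qA3.3-27363.1, had 2.24, 0.848 and 2.01 CPM in WT and 20.1, 4.86 and 41 CPM in KO (log2 fold change 3.71 ± 0.681 (SE), adjusted p = 0.00235). The most counted locus was 1-qE2.3-2.1, at 15.1, 14.9 and 17.5 CPM in WT and 56.5, 59.2 and 74.6 CPM in KO (log2 fold change 2.0 ± 0.449 (SE), adjusted p = 0.00339). This locus differed from most in that its 3 KO libraries lay close together, at 4.01 times the WT mean. The transcripts 1-qE2.3-2.1, 2-qE1-35981.2, 12-qE-23911.2 and 2-qG3-1029.1 were chosen after their values were seen, as the most counted of the class or among them.

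Transcript 2-qE1-35981.2 had 3.73, 3.58 and 6.85 CPM in WT and 48.9, 8.1 and 84.1 CPM in KO (log2 fold change 3.32 ± 0.641 (SE), adjusted p = 0.00235). For 12-qE-23911.2 the levels were 1.05, 1.22 and 1.61 CPM in WT and 33.3, 5.4 and 46.8 CPM in KO (log2 fold change 4.45 ± 0.787 (SE), adjusted p = 0.00214), and for 2-qG3-1029.1 they were 1.34, 0.377 and 0.805 CPM in WT and 28.1, 3.51 and 37.3 CPM in KO (log2 fold change 4.78 ± 0.832 (SE), adjusted p = 0.00211). All 3 showed a wide spread within KO, with library 2 low and library 3 high, and in none did the groups overlap. With the TMM factors of the other RNAs 81 of 150 were still called higher (median 2.49), after thinning 94 of 153 (median 3.33), and without each of the 6 libraries in turn 53 of the 121 calls remained.

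**Figure D3:**
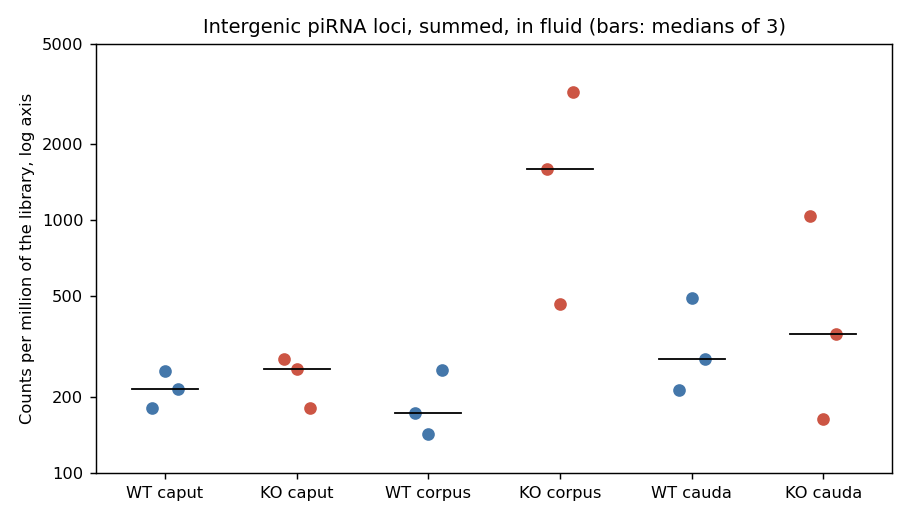
Counts on all intergenic piRNA loci in CPM (unscaled, log axis) in WT (blue) and KO (red) fluid of caput, corpus and cauda, with bars at the medians. KO corpus libraries reached 468, 1593 and 3220.1, while WT corpus libraries stayed between 142 and 256 and KO caput libraries between 180.1 and 283.

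In the other segments the same loci did not separate by genotype. Caput fluid, as named by the sample titles, held 180.2, 253 and 215 CPM in WT and 283, 258 and 180.1 in KO. Cauda fluid held 212, 493 and 284 in WT and 1045, 163 and 356 in KO, with the groups overlapping and 1 KO library standing high. Class medians of the log2 fold change were -0.28 in caput and 0.36 in cauda.

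Genic piRNA loci, each named after a gene, had fewer calls. Of 202 transcripts tested 7 were higher and 1 was lower, with a median log2 fold change of 0.44 that turned to -0.34 with the TMM factors of the other RNAs. These shares, 3.47% and 0.495%, were below the 13.5% and 6.23% of all RNAs tested. The higher ones, named after their values were seen, were 2 transcripts of 1700006A11Rik and 1 each of Uhmk1, Cbx5, Kcng3, March08 and Ddx19b. No call on these loci held without each library in turn, and the higher ones numbered 0 without WT library 2 or WT library 3 and 3 without any 1 of the other libraries. Among them pi-Uhmk1.1 had 1.94, 2.64 and 2.01 CPM in WT and 7.62, 8.37 and 3.31 CPM in KO (log2 fold change 1.54 ± 0.481 (SE), adjusted p = 0.0293). The lower one, pi-Zfp652.3, rested on 33 counts in WT against 1 in KO, a ratio of 12.7 (95% counting interval 2.13 to 519), and its call was lost without WT library 3 (adjusted p = 0.0824), KO library 2 (adjusted p = 0.127) or KO library 3 (adjusted p = 0.11). The most counted, pi-Ctdsp2.1, had 76.7, 101 and 100.1 CPM in WT and 127, 192 and 257 CPM in KO (log2 fold change 1.06 ± 0.38 (SE), adjusted p = 0.0532) and holds Mir26a-2 on the same strand, so that the 2 entries can share reads.

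Among miRNA genes, 67 of 276 (24.3%) were higher, against 13.5% of all RNAs tested, and 1 was lower. A positive log2 fold change was found for 234 of them, against 53.5% of all RNAs tested, with a median of 1.06 over the miRNA genes. With the TMM factors of the other RNAs 20 were higher, 12 were lower and the median was 0.27. Without the filter on low counts 34 of 397 were higher and 2 were lower (median 0.81). Of the 67, 21 were Mir669a and Mir467a entries that stood for 4 distinct count profiles, 12 had predicted gene symbols and 34 were other miRNAs. Without each library in turn 12 of the 68 calls remained, among them Mir204, Mir301, Mir26b, Mir30c-1, Mir30c-2, Mir34a, Mir190a and Mirlet7g.

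Mir204, encoded in an intron of Trpm3 with its mature strand at chr19:22750610-22750631, had 5.38, 6.03 and 7.25 CPM in WT and 28.1, 45.4 and 45.6 CPM in KO (log2 fold change 2.68 ± 0.41 (SE), adjusted p = 0.00138). Every KO library was above every WT library and the mean of KO was 6.38 times that of WT. Mir301, whose mature miR-301a belongs to the miR-130 group, had 2.09, 0.565 and 0.201 CPM in WT and 8.82, 5.13 and 17.4 CPM in KO (log2 fold change 3.41 ± 0.669 (SE), adjusted p = 0.00235). Mir34a, a target gene of p53, was at 0.896, 0.471 and 0.403 CPM in WT and 4.81, 3.51 and 3.31 CPM in KO (log2 fold change 2.68 ± 0.585 (SE), adjusted p = 0.00272). All 3 separated the groups, though Mir301 and Mir34a were low in both.

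The miR-26 genes Mir26b and Mir26a-1, known for holding back the methyltransferase Ezh2, were higher. Mir26b had 27.5, 31.5 and 50.5 CPM in WT and 105, 155 and 203 CPM in KO (log2 fold change 2.08 ± 0.43 (SE), adjusted p = 0.00235). Mir26a-1, at 70.5, 93.8 and 92.8 CPM in WT and 122, 179 and 249.9 CPM in KO (log2 fold change 1.1 ± 0.387 (SE), adjusted p = 0.0487), kept its groups apart, but its call was lost without WT library 1 (adjusted p = 0.174), WT library 2 (adjusted p = 0.176), WT library 3 (adjusted p = 0.159), KO library 1 (adjusted p = 0.0689), KO library 2 (adjusted p = 0.142) or KO library 3 (adjusted p = 0.205). Mir148a, which targets DNA methyltransferases among other genes, had 37, 36.4 and 48.1 CPM in WT and 79, 112 and 177 CPM in KO (log2 fold change 1.6 ± 0.39 (SE), adjusted p = 0.00648), a call lost without WT library 2 (adjusted p = 0.0711).

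The let-7 family, which restrains growth genes such as Lin28a and Hmga2, was higher for 4 of its 12 genes, and all 12 log2 fold changes were positive. Over all RNAs tested 13.5% were called higher and 53.5% had a positive log2 fold change. In 11 of the 12 genes every KO library was above every WT library, against 20.4% of all RNAs tested. Genes of the family with the same mature strand can share reads. The 12 are thus not independent, and a read can count more than once in the family's sum. The family's summed level was 223, 449.8 and 532 CPM in WT and 819, 1045 and 1098 CPM in KO. Mirlet7g had 12.7, 29.8 and 32 CPM in WT and 75, 95.1 and 102 CPM in KO (log2 fold change 1.87 ± 0.427 (SE), adjusted p = 0.00388), and its call held without each library in turn. Mir98 had 1.49, 1.51 and 4.03 CPM in WT and 7.62, 9.45 and 10.8 CPM in KO (log2 fold change 2.02 ± 0.469, adjusted p = 0.00409), a call lost without WT library 2 (adjusted p = 0.0657). Mirlet7a-1 had 16.7, 32.2 and 38.9 CPM in WT and 81.8, 87.8 and 84.1 CPM in KO (log2 fold change 1.53 ± 0.432 (SE), adjusted p = 0.0175), lost without WT library 1 (adjusted p = 0.0994), WT library 2 (adjusted p = 0.0804), KO library 1 (adjusted p = 0.057) or KO library 2 (adjusted p = 0.0665). The 8 let-7 genes that missed the threshold had log2 fold changes between 0.86 (Mirlet7i) and 1.34 (Mirlet7d). With the TMM factors of the other RNAs the family's median log2 fold change went from 1.23 to 0.46 and 2 genes were called.

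In the miR-30 family 3 of 6 genes were higher, against 13.5% of all RNAs tested. Mir30c-1 had 20.5, 22.7 and 33.2 CPM in WT and 71.4, 82.7 and 123 CPM in KO (log2 fold change 1.86 ± 0.387 (SE), adjusted p = 0.00235), and the counts of Mir30c-2, whose mature strand is the same, were nearly equal. Mir30a had 8.21, 4.71 and 7.45 CPM in WT and 18, 20.5 and 31.1 CPM in KO (log2 fold change 1.78 ± 0.448 (SE), adjusted p = 0.00816), with a call lost without WT library 2 (adjusted p = 0.114) or WT library 3 (adjusted p = 0.0675). Mir30d overlapped between the groups, with a log2 fold change of 0.33.

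The miR-200 family, 5 genes known as markers of epithelium, had no call. Its log2 fold changes ran from 0.76 (Mir200c) to 1.44 (Mir429). Every KO library was above every WT library in 4 of the 5 genes, against 20.4% of all RNAs tested. Mir200b, the member with the smallest p, had 12.5, 4.8 and 15.9 CPM in WT and 20.5, 20.5 and 36.5 CPM in KO (log2 fold change 1.23 ± 0.48 (SE), adjusted p = 0.0762). The summed level was 62.6, 27.1 and 61.4 CPM in WT and 88.6, 87.5 and 134 CPM in KO, so the groups did not overlap. With the TMM factors of the other RNAs the median fell from 1.13 to 0.28 and 1 of the 5 log2 fold changes was negative.

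Mir21a was the most counted miRNA gene outside the 7SL-like entries, at 109.7, 67.7 and 137 CPM in WT and 207, 257 and 348 CPM in KO (log2 fold change 1.37 ± 0.424 (SE), adjusted p = 0.0283), and its call was lost without WT library 1 (adjusted p = 0.084), WT library 2 (adjusted p = 0.206), WT library 3 (adjusted p = 0.0888), KO library 1 (adjusted p = 0.0715), KO library 2 (adjusted p = 0.102) or KO library 3 (adjusted p = 0.109). The miR-10, miR-99, miR-100 and miR-125 genes had no call among 8, and their median of 0.60 turned to -0.21 with the TMM factors of the other RNAs. Their most counted member, Mir125b-1, had 116, 154 and 163 CPM in WT and 176, 203 and 247 CPM in KO (log2 fold change 0.53 ± 0.388, adjusted p = 0.364), apart but by a small margin.

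The summed levels of blood cell and muscle markers were highest in KO library 3, as were those of the let-7, miR-30, miR-200 and miR-10 families above. Of 10 names on the blood cell list 6 were among the RNAs counted, 5 passed the filter and 2 were called higher, against 13.5% of all RNAs tested. The summed level of the 5 was 32.5, 69.8 and 58.6 CPM in WT and 38.5, 69.2 and 200.1 CPM in KO. Mir142, a miRNA of leukocytes, had 5.23, 4.33 and 4.23 CPM in WT and 12.4, 13.2 and 36.9 CPM in KO (log2 fold change 2.17 ± 0.588 (SE), adjusted p = 0.0135), lost without WT library 2 (adjusted p = 0.105), WT library 3 (adjusted p = 0.0914) or KO library 3 (adjusted p = 0.107). Mir150, of lymphocytes, had 0.597, 2.07 and 1.61 CPM in WT and 3.21, 4.59 and 9.94 CPM in KO (log2 fold change 2.01 ± 0.54 (SE), adjusted p = 0.0129), lost without WT library 1 (adjusted p = 0.076) or KO library 3 (adjusted p = 0.102). The erythroid Mir451a overlapped, at 16.4, 47.5 and 40.7 CPM in WT and 16, 40.2 and 116 CPM in KO.

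Of 7 names on the muscle list 6 were among the RNAs counted, and these 6 passed the filter. Called higher were 2 of them, against 13.5% of all RNAs tested. The 2 higher ones were the genes Mir1a-1 and Mir1a-2 of striated muscle, which have the same mature strand. Mir1a-1 had 2.84, 2.92 and 1.61 CPM in WT and 10.8, 5.4 and 19.5 CPM in KO (log2 fold change 2.23 ± 0.597 (SE), adjusted p = 0.012), lost without WT library 2 (adjusted p = 0.0556), WT library 3 (adjusted p = 0.0729) or KO library 3 (adjusted p = 0.084). The smooth muscle pair overlapped, with log2 fold changes of 0.63 for Mir143 and 0.22 for Mir145a, and the summed level of the list was 175, 98.5 and 146 CPM in WT and 172, 138 and 311 CPM in KO. Of 22 names on the germ cell list 19 were among the RNAs counted, 14 passed the filter and none was called. The summed level of the 14 was 19.9, 7.82 and 28 CPM in WT and 24.9, 36.7 and 27.3 CPM in KO. KO library 3 was also the highest in intergenic piRNA counts. The part of cells of these types in the results was not tested. With the TMM factors of the other RNAs the medians of the blood cell and muscle lists turned from 0.71 and 0.43 to -0.10 and -0.38, and no member was called.

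Some entries annotated as miRNA genes carry predicted symbols. Gm26340 rested on 28 counts in KO against 2 in WT, a ratio of 36.2 (95% counting interval 9.14 to 314). Gm27527, the lower one, had 4.93, 2.54 and 3.22 CPM in WT and 0.401, 0.54 and 0.414 CPM in KO (log2 fold change -2.9 ± 0.813 (SE), adjusted p = 0.0169), lost without WT library 1 (adjusted p = 0.0669) or KO library 1 (adjusted p = 0.059). Gm47299 is similar in sequence to 7SL RNA and was the most counted entry of the class, at 985, 1958 and 1558 CPM in WT and 1933, 1699.6 and 926 CPM in KO, with a log2 fold change of 0.02 whose sign changed without 4 of the libraries.

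**Figure D4:**
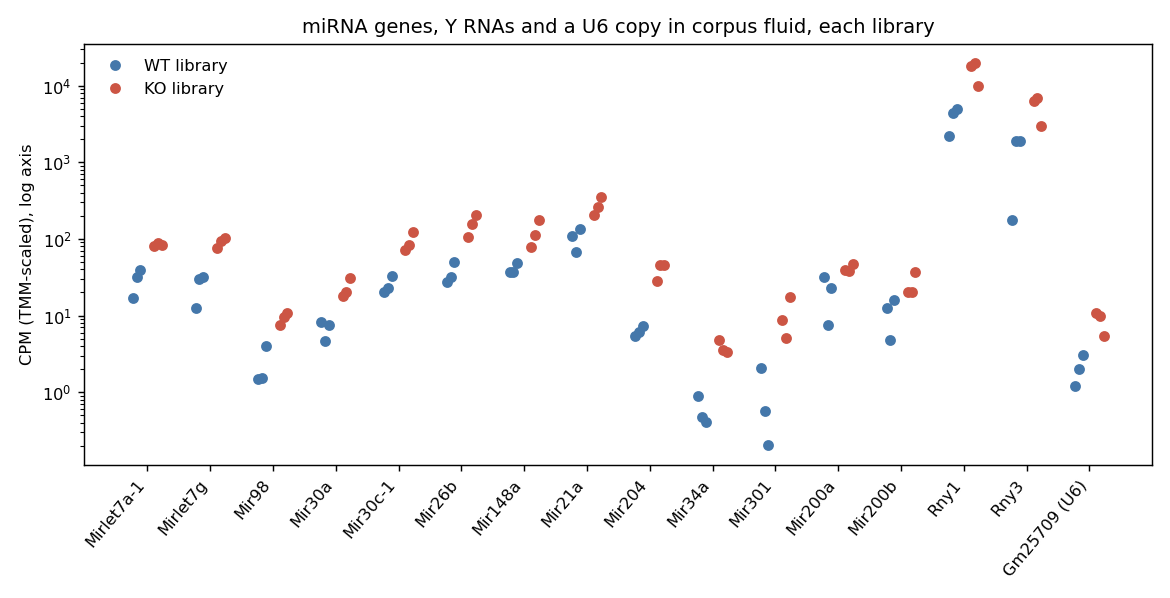
CPM (TMM-scaled, log axis) of 13 miRNA genes, both Y RNAs and the U6 copy Gm25709 in the 3 WT (blue) and 3 KO (red) corpus fluid libraries, 1 point each. For all 16 RNAs the lowest KO library is above the highest WT library, as for 20.4% of all RNAs tested. All but Mir200a and Mir200b were picked among the calls made from these same libraries. Their separation thus follows largely from the choice and is not separate support.

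Copies of U6 made up most of the snRNAs that were higher. Grouped by sequence with the named spliceosomal RNAs, 34 of 49 U6-like entries were higher and 47 had a positive log2 fold change (median 2.04). The counts were 4 of 10 for U5, 2 of 24 for U2 and 0 of 71 for U1, where 2 entries were lower, and 3 of 24 for entries similar to none. Over all RNAs tested 13.5% were higher and 53.5% had a positive log2 fold change. The 49 U6-like entries are copies that share reads (45 distinct count profiles), so the 34 calls are not independent. The U6 copy Gm25709 had 1.19, 1.98 and 3.02 CPM in WT and 10.8, 9.72 and 5.39 CPM in KO (log2 fold change 2.08 ± 0.423 (SE), adjusted p = 0.00235). Its groups did not overlap, and 34 U6-like entries were also called higher with the TMM factors of the other RNAs.

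For U1 RNA, which pairs with the 5′ splice site, no entry was higher. The gene Rnu1a1 had 1039, 1811 and 1824 CPM in WT and 1748, 2051 and 1327 CPM in KO (log2 fold change 0.13 ± 0.36, adjusted p = 0.877), with the groups overlapping and the sign changing without WT library 1 (-0.10) or KO library 2 (-0.12). The U1-like copies Gm24056 and Gm23485 were lower, at -2.15 and -2.17 on the log2 scale. Gm24056 had 36.7, 10.6 and 21.7 CPM in WT and 6.42, 4.59 and 4.56 CPM in KO, and the calls of both were lost without WT library 1 (adjusted p = 0.0549 and 0.0669). The median log2 fold change of U1-like entries was -0.06.

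Of 68 snoRNAs, which guide the modification of rRNA, 5 were higher and 1 was lower. Their share of higher calls, 7.35%, was below the 13.5% of all RNAs tested. Gm23262 had 0.597, 0.942 and 0.403 CPM in WT and 7.22, 7.02 and 4.14 CPM in KO (log2 fold change 3.15 ± 0.646 (SE), adjusted p = 0.00235), the only snoRNA call that held without each library in turn. Snord2 had 0, 0.471 and 0.403 CPM in WT and 3.61, 5.4 and 1.66 CPM in KO (log2 fold change 3.51 ± 0.91 (SE), adjusted p = 0.00987), lost without WT library 1 (adjusted p = 0.0502) or KO library 2 (adjusted p = 0.0686), and Snord37 had 0.299, 0.283 and 0.604 CPM in WT and 2.01, 3.78 and 1.66 CPM in KO (log2 fold change 2.71 ± 0.799 (SE), adjusted p = 0.0213), lost without WT library 1 (adjusted p = 0.0853), WT library 2 (adjusted p = 0.126), KO library 1 (adjusted p = 0.0573) or KO library 2 (adjusted p = 0.153). Snora74a was lower on 63 counts in WT against 1 in KO, a ratio of 24.3 (95% counting interval 4.21 to 976), and its call was lost without KO library 1 (adjusted p = 0.0671) or KO library 2 (adjusted p = 0.0756). The most counted entry, Rnu3b1 of the U3 RNA needed to process 18S rRNA, overlapped with a log2 fold change of 0.29.

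Y RNAs were the most counted of the RNAs that were higher. Rny1 had 2200.0, 4344 and 4997 CPM in WT and 18075, 19716 and 9993 CPM in KO (log2 fold change 2.05 ± 0.403 (SE), adjusted p = 0.00235), and the KO mean was 4.14 times that of WT, with the groups apart. Rny3 had 179, 1869 and 1884 CPM in WT and 6295, 6852 and 3004 CPM in KO (log2 fold change 2.04 ± 0.707 (SE), adjusted p = 0.0455), with WT library 1 far below the other WT libraries. The Rny1 call held without each library in turn, while that of Rny3 was lost without WT library 1 (adjusted p = 0.165), WT library 2 (adjusted p = 0.0924), WT library 3 (adjusted p = 0.0559), KO library 1 (adjusted p = 0.124) or KO library 2 (adjusted p = 0.142). The Rny3 call was also lost with the TMM factors of the other RNAs (adjusted p = 0.147), with library size alone (adjusted p = 0.0661) and after thinning (adjusted p = 0.0504). Of 14 Y-like entries 5 were higher, against 13.5% of all RNAs tested. All 14 log2 fold changes were positive (median 1.5), against 53.5% of all RNAs tested, and 13 stayed positive with the TMM factors of the other RNAs. The copies Gm24379 and Gm26168 were at 2.83 and 1.58 on the log2 scale (adjusted p = 0.0053 and 0.010), and the call of Gm26168 was lost without WT library 1 (adjusted p = 0.0649), WT library 2 (adjusted p = 0.0611), KO library 1 (adjusted p = 0.0863) or KO library 2 (adjusted p = 0.0531).

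7SK RNA was called higher and 7SL RNA was not called. Rn7sk had 138, 377 and 265 CPM in WT and 759, 859 and 554 CPM in KO (log2 fold change 1.48 ± 0.428 (SE), adjusted p = 0.0201), with the groups apart and a call lost without WT library 1 (adjusted p = 0.116), WT library 3 (adjusted p = 0.0765), KO library 1 (adjusted p = 0.0806) or KO library 2 (adjusted p = 0.101). Of 72 entries similar to 7SK 7 were higher (median 1.20), a share below the 13.5% of all RNAs tested. None was higher with the TMM factors of the other RNAs (median 0.43). Rn7s1, a 7SL gene with the same counts as Rn7s2, had 3483, 3698 and 3290.0 CPM in WT and 3178, 2844 and 2024 CPM in KO (log2 fold change -0.38 ± 0.379 (SE), adjusted p = 0.53), with every KO library below every WT library. Of the 11 entries similar to 7SL none was called and 9 were called lower with those other factors. The vault RNA Vaultrc5 had 27.5, 44.3 and 41.3 CPM in WT and 79, 85.6 and 46.8 CPM in KO (log2 fold change 0.9 ± 0.373 (SE), adjusted p = 0.0929). Rpph1 and Rmrp, the RNA parts of ribonucleases P and MRP, had log2 fold changes of 0.04 and 0.33, within the spread between libraries.

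Fragments from inside the tRNA made up most of the lower calls. Of 198 such entries 79 were lower and none was higher, with a median log2 fold change of -1.02. Of the 183 entries for 5′ tRFs 15 were lower and of the 180 for 3′ tRFs 12 were, with none higher and medians of -0.49 and -0.48. These 2 shares of lower calls, 8.20% and 6.67%, lay near the 6.23% of all RNAs tested. Without each library in turn 28 of the 79 calls remained, 3 of the 15 and 0 of the 12. The lower internal fragments were 16 of 18 for arginine, 9 of 10 for glutamine, 9 of 16 for lysine, 6 of 6 for tryptophan, 6 of 6 for methionine, 5 of 5 for tyrosine, 4 of 4 for asparagine and 3 of 3 for phenylalanine, but 1 of 10 for glycine, 0 of 17 for leucine, 1 of 12 for serine and 2 of 14 for threonine.

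Single entries share reads between tRNA genes of an anticodon. The internal fragments of tRNA-Gln-TTG-1 and -3 had the same counts, 3693, 1415 and 2143 CPM in WT and 656, 426 and 800.1 CPM in KO (log2 fold change -1.95 ± 0.38 (SE), adjusted p = 0.00235). Those of tRNA-Gln-CTG-4 had 3263, 1252 and 1958 CPM in WT and 552, 364 and 668 CPM in KO (log2 fold change -2.03 ± 0.404 (SE), adjusted p = 0.00235). WT library 1 was the highest for both and every KO library was below every WT library. The 5′ fragment of tRNA-Leu-AAG-1 had 743, 192 and 374 CPM in WT and 113, 90.2 and 141 CPM in KO (log2 fold change -1.93 ± 0.409 (SE), adjusted p = 0.00236), and that of tRNA-Leu-TAG-1 was nearly equal. The 5′ fragment of tRNA-Lys-CTT-14 had 57.6, 8.95 and 24 CPM in WT and 6.02, 3.78 and 4.56 CPM in KO (log2 fold change -2.66 ± 0.567 (SE), adjusted p = 0.0024). All 3 calls of 5′ tRFs held without each library in turn.

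The most counted 5′ tRF, of tRNA-Gly-GCC-2, was not called. It had 53413, 45967 and 39051 CPM in WT and 61348, 60906 and 51021 CPM in KO (log2 fold change 0.32 ± 0.281 (SE), adjusted p = 0.453), and its sign turned with the TMM factors of the other RNAs (-0.50). Among 3′ tRFs, tRNA-Thr-AGT-1 had 3794, 3427 and 2505 CPM in WT and 1850.5, 1327 and 1517 CPM in KO (log2 fold change -1.05 ± 0.32 (SE), adjusted p = 0.0259), lost without WT library 1 (adjusted p = 0.101) or KO library 3 (adjusted p = 0.0765). The most counted, tRNA-His-GTG-2, overlapped at 26585, 26798 and 19843 CPM in WT and 25259.9, 18370.1 and 20342 CPM in KO (log2 fold change -0.19). The 3′ tRF of tRNA-Val-CAC-4 was low in abundance at 3.02 to 5.52 CPM in WT and 0.401 to 0.829 CPM in KO (log2 fold change -2.75 ± 0.806 (SE), adjusted p = 0.0211), lost without WT library 1 (adjusted p = 0.0806), KO library 1 (adjusted p = 0.0904) or KO library 2 (adjusted p = 0.0849). That of tRNA-Ser-GGA-1 had 39 counts in WT and 0 in KO, at least 5.02-fold lower against a floor of 3 counts over the KO group, and its call was lost without WT library 1 (adjusted p = 0.0549).

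Entries were also summed by anticodon and fragment type, a sum in which a read shared by entries counts more than once. Of these, 26 of 51 sums of internal fragments were lower, 6 of 49 sums of 5′ tRFs and 5 of 49 sums of 3′ tRFs. Among all single RNAs tested 6.23% were lower. No sum of tRFs was higher. The numbers of lower sums changed most without WT library 1, to 16, 3 and 1. Without KO library 2 they were 3 for 5′ and 2 for 3′ tRFs, and without KO library 3 the 3′ tRFs had 1.

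The sum of internal Ile-TAT fragments had 332, 75.4 and 143 CPM in WT and 29.3, 33.3 and 19.7 CPM in KO (log2 fold change -2.74 ± 0.497 (SE), adjusted p = 0.00524). That of Gln-TTG had 9638, 2601 and 4399.6 CPM in WT and 1234, 779.8 and 1642 CPM in KO (log2 fold change -2.19 ± 0.409 (SE), adjusted p = 0.00524), and that of Val-TAC had 551, 211 and 249 CPM in WT and 86.3, 59.3 and 92.6 CPM in KO (log2 fold change -2.09 ± 0.393 (SE), adjusted p = 0.00524). In all 3 sums WT library 1 was the highest, and the groups stayed apart. The most counted internal fragments, of Gln-CTG, had 22674, 5462 and 10017 CPM in WT and 2936, 1879 and 3807 CPM in KO (log2 fold change -2.15 ± 0.442 (SE), adjusted p = 0.00572). Internal Gly-GCC fragments, by contrast, had 6759, 8877 and 8783 CPM in WT and 5478, 3709 and 5228 CPM in KO (log2 fold change -0.76 ± 0.679 (SE), adjusted p = 0.465), all KO libraries below all WT libraries but not called.

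**Figure D5:**
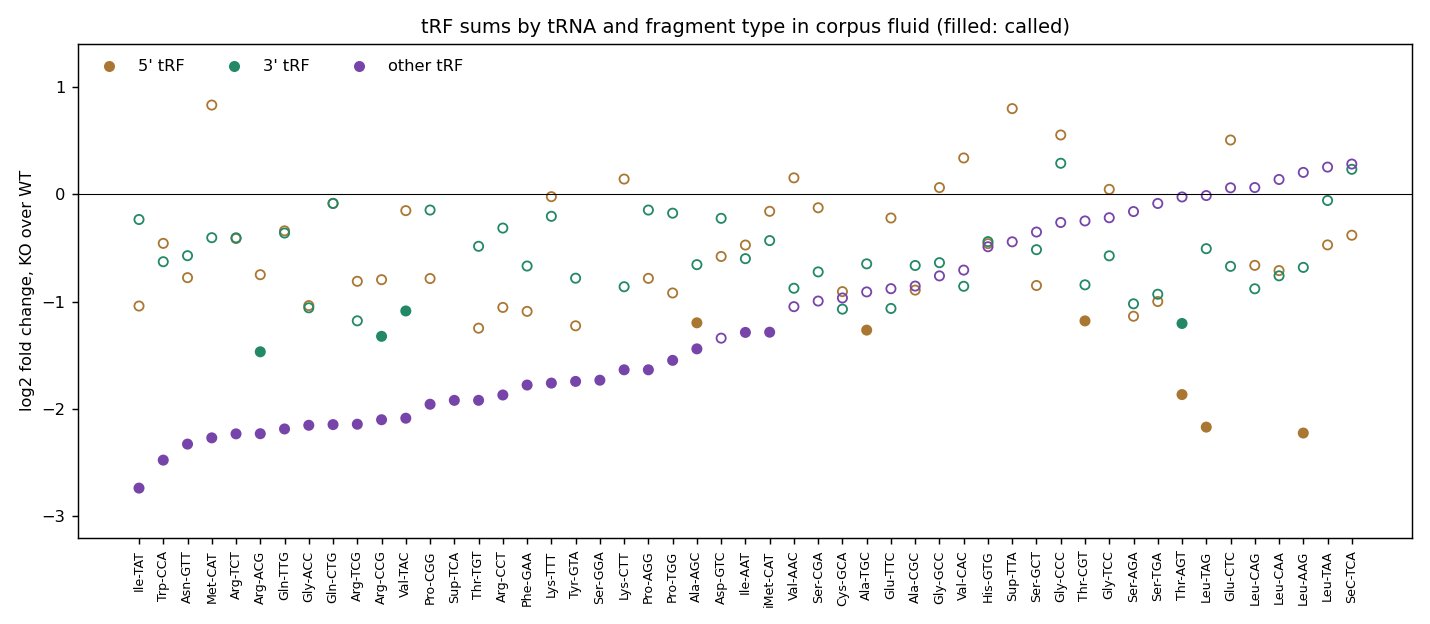
Log2 fold change of KO over WT for tRFs summed by tRNA (horizontal axis, ordered by the internal fragments) and fragment type, with filled points for those called. Filled purple points of internal fragments run from -2.74 (Ile-TAT) upward on the left, 5′ tRFs of Leu-AAG and Leu-TAG are filled at -2.22 and -2.17, and the 3′ tRF of Ser-GGA, with no counts in KO, is not drawn.

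The 5′ sums with the most counts were not called. The Gly-GCC sum had 201352, 121325 and 115864 CPM in WT and 158449, 154788 and 144583 CPM in KO (log2 fold change 0.06 ± 0.315 (SE), adjusted p = 0.928), and it made up 41.7% ± 2.10 (SD, n = 3) of all 5′ tRF counts in WT and 43.1% ± 1.02 in KO. The Glu-CTC sum had 35552, 36981 and 39248 CPM in WT and 63704, 54539 and 40443 CPM in KO (log2 fold change 0.51 ± 0.295 (SE), adjusted p = 0.241), and the Val-AAC sum overlapped with a log2 fold change of 0.15. The called 5′ sums were those of Leu-AAG, Leu-TAG, Thr-AGT, Thr-CGT, Ala-AGC and Ala-TGC. The most counted of these, Ala-AGC, had 9616, 7468 and 7442 CPM in WT and 4020.1, 3169.8 and 3503 CPM in KO (log2 fold change -1.2 ± 0.336 (SE), adjusted p = 0.0189). The called 3′ sums were Arg-ACG, Arg-CCG, Thr-AGT, Val-TAC and Ser-GGA, while Leu-CAA, Leu-CAG and His-GTG, the most counted in WT, had log2 fold changes of -0.76, -0.88 and -0.44 and were not called.

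A ratio within a library does not depend on any scale. The log2 ratio of 5′ to 3′ tRF counts over all tRNAs was -0.06, -0.04 and 0.29 in WT and 0.65, 0.91 and 0.56 in KO, a difference of 0.64 with the groups apart (p = 0.1, 2-sided exact permutation test, the smallest that 3 against 3 allows). Of 40 anticodons with enough counts, 8 had every KO library above every WT library and 7 the reverse, and no adjusted p was below 0.267. The log2 ratio was higher in KO by 0.70 for Gly-GCC, by 1.12 for Glu-CTC and by 1.15 for Val-CAC, and fell by 1.44 for Leu-TAG.

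Full-length tRNAs were sparse. All 24 entries tested had a positive log2 fold change (median 2.19), against 53.5% of all RNAs tested, and 1 was called. In 12 of the 15 sums every KO library was above every WT library, against 20.4% of all single RNAs tested, and no sum was called. WT library 1 was far below the others here, and without it the median over entries was 1.81. The most counted, tRNA-Asp-GTC-1, had 0.896, 31.6 and 18.1 CPM in WT and 67.4, 39.2 and 33.1 CPM in KO (log2 fold change 1.45 ± 1.0 (SE), adjusted p = 0.33). tRNA-Val-CAC-2 had 0.149, 8.1 and 6.44 CPM in WT and 24.1, 27.3 and 29.8 CPM in KO (log2 fold change 2.45 ± 0.967 (SE), adjusted p = 0.0789). The called one, initiator tRNA-iMet-CAT-1, rested on 10 counts in KO against 1 in WT, a ratio of 25.9 (95% counting interval 3.68 to 1123), and was lost without WT library 1 (adjusted p = 0.119), WT library 2 (adjusted p = 0.171), KO library 1 (adjusted p = 0.0977), KO library 2 (adjusted p = 0.122) or KO library 3 (adjusted p = 0.0533). Caput fluid had a median of 2.0 for these entries and cauda fluid one of -0.26.

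Reads assigned to tRNA gene loci rather than to mature tRNAs were called higher for 11 of 141 loci and lower for 1 (median 0.48, and -0.35 with the TMM factors of the other RNAs). The share of loci called higher, 7.80%, was below the 13.5% of all RNAs tested. Locus tRNA-Arg-ACG-1-1 had 18 counts in KO against 2 in WT, a ratio of 23.3 (95% counting interval 5.58 to 207), and alone of these loci it was called without each library in turn. Locus tRNA-Tyr-GTA-3-2 had 7.47, 9.04 and 8.46 CPM in WT and 29.7, 20.5 and 21.5 CPM in KO (log2 fold change 1.52 ± 0.386 (SE), adjusted p = 0.00858), lost without WT library 2 (adjusted p = 0.0596), WT library 3 (adjusted p = 0.0525) or KO library 1 (adjusted p = 0.0629). The most counted locus, tRNA-Gly-GCC-2-6, overlapped with a log2 fold change of 0.13, and the entry tRNA-Gly-GCC-2-3 was lower (log2 fold change -2.53 ± 0.722 (SE), adjusted p = 0.0182), lost without WT library 1 (adjusted p = 0.0551), KO library 1 (adjusted p = 0.0712) or KO library 2 (adjusted p = 0.0529). Reads antisense to tRNAs were lower for 5 of 23 entries (median -1.5), against 6.23% of all RNAs tested. None of these calls held without each library in turn. The lower entries numbered 0 without WT library 1 or KO library 2, 1 without KO library 1, and 3 without WT library 2 or KO library 3. They also numbered 0 with library size alone, after thinning and with the 6 corpus libraries alone.

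Fragments of rRNA had few calls. None of the 7 rRNA sequences was called, and the 28S rRNA had 25739.7, 27112 and 27416 CPM in WT and 31576, 29405 and 22959 CPM in KO (log2 fold change 0.06 ± 0.296, adjusted p = 0.924). Among genomic copies of rRNA, 6 of 156 5S copies were higher and 4 were lower, 2 of 23 18S copies were lower and 3 of 100 28S copies were lower. Higher calls were 3.85% of the 5S copies, against 13.5% of all RNAs tested. Lower calls were 2.56% of the 5S, 8.70% of the 18S and 3% of the 28S copies, against 6.23% of all RNAs tested. No call on these copies held without each library in turn. The 5S copy rmsk_5S_556 had 54.2, 47.6 and 69.5 CPM in WT and 174, 181 and 95.7 CPM in KO (log2 fold change 1.4 ± 0.421 (SE), adjusted p = 0.0245), lost without WT library 1 (adjusted p = 0.0882), WT library 2 (adjusted p = 0.133), WT library 3 (adjusted p = 0.0644), KO library 1 (adjusted p = 0.10) or KO library 2 (adjusted p = 0.117). The 28S copy rmsk_28S_446 had 92.3, 65.1 and 82.1 CPM in WT and 27.3, 38.6 and 33.6 CPM in KO (log2 fold change -1.27 ± 0.398 (SE), adjusted p = 0.0303), lost without WT library 1 (adjusted p = 0.0972), KO library 1 (adjusted p = 0.0993), KO library 2 (adjusted p = 0.0531) or KO library 3 (adjusted p = 0.0793). The copy rmsk_5S_1013 was lower on 53 counts in WT against 1 in KO, a ratio of 20.5 (95% counting interval 3.52 to 824), and was lost without WT library 2 (adjusted p = 0.0537), KO library 2 (adjusted p = 0.0974) or KO library 3 (adjusted p = 0.0848).

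Libraries were taken as caput fluid by their titles, while another label of the same samples names the cauda, so that every caput value rests on the titles. Caput and cauda fluid of the same genotypes, 3 libraries each, gave 0 calls with edgeR in either direction at the same thresholds (0%). Unadjusted p-values were under 0.05 for 110 higher (5.44%) and 104 lower RNAs (5.14%) in caput and for 131 (6.48%) and 57 (2.82%) in cauda, and DESeq2 made 9 and 42 calls. The difference of the KO effect was tested as an interaction. The log2 fold change was higher in corpus than in caput fluid for 34 RNAs (1.68% of those tested), all of them intergenic piRNA transcripts, and lower for 3 (0.148%). Against cauda fluid it was higher for 91 RNAs (4.5%), among them 40 intergenic piRNA transcripts, 34 snRNAs and 11 miRNA genes, and lower for 58 (2.87%), among them 29 internal tRFs and 21 5′ tRFs.

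The interaction calls changed with the libraries used. With library size alone as the scale, 0 higher and 2 lower ones were called against caput and 0 in both directions against cauda. Against caput fluid, no higher one was called without WT library 2, WT library 3, KO library 1 or KO library 3, while without WT library 1 there were 19 and without KO library 2 there were 55. Against cauda fluid, 0 higher ones were called without WT library 1 or KO library 1, 2 without WT library 2, 50 without WT library 3, 36 without KO library 2 and 52 without KO library 3. The lower ones numbered 0 without WT library 1 or KO library 1 and 10 without KO library 2 against cauda, and 0 without WT library 2, KO library 1 or KO library 3 against caput. For Gm25709, the U6 copy, the log2 fold changes were 2.08 in corpus, 0.54 in caput and -0.5 in cauda. Those of Mir204 were 2.68, 1.06 and 0.85, and those of the internal Gln-TTG sum were -2.19, -0.99 and -0.25. Those of Rny1 were 2.05, 0.25 and 0.55, while the median of Rny1 and Rny3 was 2.04, 0.25 and 1.51. In cauda fluid Rny3 thus had a higher log2 fold change than Rny1. The class of other small RNAs had medians of 1.02 in corpus, 0.23 in caput and 0.80 in cauda.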

How the data were processed

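The authors deposited raw read counts per RNA for fluid, made by trimming with cutadapt, removing unique molecular identifiers' bases and mapping with bowtie2 in a modified tRAX to mm10 with added mature tRNA and rRNA sequences. A read that matched several entries equally well could count for each, so summed counts are not reads. Counts of 18 fluid libraries were fitted with edgeR 4.0.16 (R 4.3.3), quasi-likelihood test, TMM factors, 1 coefficient per genotype and segment, filter at a minimum count of 10 and a total of 15, Benjamini-Hochberg adjustment over all 2023 RNAs. CPM are TMM-scaled. RNA families were assigned with blastn 2.17.0, and of 1057 Ensembl names 1053 matched GENCODE. Alternatives used DESeq2 1.42.0. Exact tests used scipy 1.17.1. Named were the 3 RNAs of smallest p per class and direction among non-overlapping calls, the 2 most counted per class, list members, the 3 most counted in WT and the 3 of smallest p among sums, and the 3 of smallest p per interaction. Members and lists were chosen with earlier results of these data known. Between replicates of a group r of log2 CPM was 0.930 to 0.978. Intervals and floors cover counting error only. 1 locus and 1 sequence are not reported here. The fit was checked on simulated data.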

Additional observations from a re-analysis of the deposited data

Results flagged for a closer look

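The effect of KO differed between corpus fluid and another segment by the interaction term of edgeR's quasi-likelihood test for 34 RNAs upward and 3 downward against caput and for 91 upward and 58 downward against cauda, and the 11 given here are among those with the smallest p of each direction. The differences are given as log2 fold change in corpus minus that in the other segment. Upward ones against caput fell to 0 with library size alone and without WT library 2, WT library 3, KO library 1 or KO library 3. Against cauda both directions fell to 0 with library size alone and without WT library 1 or KO library 1.

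Against caput fluid, the intergenic piRNA transcripts 15-qD3-14639.3, 15-qD3-14639.2 and 17-qA3.3-27363.1 differed by 4.81 ± 0.908, 4.76 ± 0.960 and 4.82 ± 0.954 (SE), each with adjusted p = 0.0155. The log2 fold changes of 15-qD3-14639.3 itself were 4.46 in corpus and -0.36 in caput. Antisense entries of tRNA-Thr-AGT-1 and tRNA-Thr-AGT-3, which have the same counts, differed by -3.95 ± 0.772 (adjusted p = 0.0155), and that of tRNA-Thr-AGT-2 by -3.50 ± 0.782 (adjusted p = 0.0205). The first of these had 4.33, 3.20 and 2.42 CPM in WT and 0.802, 1.08 and 0.829 CPM in KO corpus fluid, and its log2 fold change was -1.84 in corpus and 2.12 in caput. Its call in corpus was lost without each library other than WT library 3 (adjusted p = 0.0539 to 0.12).

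Against cauda fluid, the locus tRNA-Arg-ACG-1-1 differed by 4.05 ± 0.901 and the U6 copy Gm25709 by 2.58 ± 0.579, both with adjusted p = 0.0196. In corpus fluid the value of this locus rested on 18 counts in KO against 2 in WT. The 5′ fragments of tRNA-Ala-CGC-2, tRNA-Ala-AGC-8 and tRNA-Ala-CGC-1 differed by -2.52 ± 0.588, -2.57 ± 0.601 and -2.51 ± 0.589, each with adjusted p = 0.0196. In corpus alone these 3 fragments missed the threshold, with adjusted p = 0.0664, 0.0685 and 0.0658. The fragment of tRNA-Ala-CGC-2 had 408, 477 and 405 CPM in WT and 189, 184 and 232 CPM in KO corpus fluid, so the groups did not overlap. Caput libraries were named by their titles, while another label of the same samples names the cauda.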

How the results depend on the processing

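Higher and lower calls numbered 302 and 163 with DESeq2, 262 and 142 with its size factors, 203 and 59 with library size alone, 164 and 92 with the 6 corpus libraries alone, and 144 and 467 with TMM factors that leave out tRFs, tRNAs and rsRNAs (other-RNA factors). Among settings chosen after seeing the data, 1 entry per set of identical counts gave 181 and 130. Leaving out 1 library gave 114 to 212 higher and 37 to 128 lower. The replicate block gave 214 and 103, and DESeq2 with the block 237 and 164. Deviations of same-numbered libraries correlated at -0.054, 0.196 and 0.025, and WT library 1, KO library 1 and KO library 3 did not correlate best with their own number, so the numbers were not taken as pairs. With the other-RNA factors class medians turned to -0.35 (tRNA loci), -0.58 (snRNA), -0.52 (snoRNA) and -0.34 (genic piRNA). The rRNA sequence median turned to 0.0176 with the 6 libraries alone and ran from -0.35 to 0.19 without 1 library, that of 5S copies from -0.42 to 0.12, and that of snRNAs was -0.0155 without the filter. Share differences in percentage points turned to -0.621 (rRNA sequences) and -0.0353 (snRNAs) with the most counted entry of each type, and without 1 library ran from -0.279 to 0.657 for rRNA sequences, from -1.23 to 0.360 for 5S copies and from -0.474 to 0.958 for snRNAs. Sums called lower with library size alone were 3 (5′), 3 (3′) and 16 (internal), and 1 full-length sum was higher, as with DESeq2. Without 1 library they ran from 3 to 9, 1 to 6 and 16 to 27, and full-length sums from 0 to 1. Interactions with library size alone gave 0 higher against caput and 0 in both directions against cauda, and DESeq2 gave 6 lower against caput. Without 1 library they ran from 0 to 55 higher and 0 to 4 lower against caput, and from 0 to 52 higher and 0 to 66 lower against cauda. Of named RNAs that were not called, signs turned with the other-RNA factors for the 5′ fragment of tRNA-Gly-GCC-2 (-0.50), tRNA-Gly-GCC-2-6 (-0.72), tRNA-Met-CAT-1-1 (-0.14), 28S_rRNA_2 (-0.73), Gm47299 (-0.74), Rnu1a1 (-0.64) and Rnu3b1 (-0.52). Without the filter tRNA-Gly-GCC-2-6 was at -0.0662, 28S_rRNA_2 at -0.11, Gm47299 at -0.14 and Rnu1a1 at -0.0167. With 1 entry per identical counts tRNA-Gly-GCC-2-6 was at -0.0327, 28S_rRNA_2 at -0.0625 and Gm47299 at -0.0742. With DESeq2, its size factors and its block fit, 28S_rRNA_2 was at -0.0192, -0.0125 and -0.0245, and Gm47299 at -0.0668, -0.0589 and -0.0759. With library size alone Gm47299 was at -0.00014. Without 1 library tRNA-Gly-GCC-2-6 ran from -0.23 to 0.41, 28S_rRNA_2 from -0.17 to 0.19, Gm47299 from -0.28 to 0.28 and Rnu1a1 from -0.12 to 0.29. The causes were not tested. Depth limits what can be said of RNAs with few counts, most of all in the KO libraries, which were all shallower than those of WT.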
